A study of Oryza sativa with 6 samples.

Results

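The cinnamyl alcohol dehydrogenases (CAD) of rice were followed in detached leaves held in darkness with or without 6-benzyl adenine (BA, a synthetic cytokinin). The family was taken as the genes named CAD1 to CAD7, CAD8A to CAD8D and CAD9, and the BA-treated against untreated values were among the results from which the family was selected, so the values of its members in that comparison are given as a description; counts of members past a threshold stand beside the share of all probe sets past it and support nothing. Of the 12 names searched, 10 were named in the reference and 7 genes had at least 1 probe set listed with that gene alone, giving 8 probe sets among 57258 rice probe sets and 7 genes among 17905. These were CAD1, CAD2, CAD3, CAD6, CAD7, CAD8A and CAD8C; CAD4, CAD5, CAD8B, CAD8D and CAD9 were not analysed here.

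All leaves were the third leaf of 30-day-old plants of the cultivar Nagina 22 (N22), a drought- and heat-tolerant rice. The 3 BA-treated samples lay in a solution with 2 mg/ml BA in sodium hydroxide and Tween 20, and the 3 untreated samples lay in that solution without BA, so alkali, detergent, detachment and darkness were common to both groups. Both groups were kept 72 h in the dark according to the extraction protocol, whereas 1 sample field of the labels gives 2 h. The study describes the replicates as biological, and every sample pools several leaves of a single cultivar at a single time point. A transcript that was higher with BA may therefore have gone up in treated leaves or gone down in untreated ones, and these cannot be told apart. In whole leaves, fewer cells of a type and less RNA per cell cannot be told apart either.

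CAD enzymes are NADPH-dependent reductases that convert cinnamaldehydes, such as coniferaldehyde and sinapaldehyde, into the alcohols (monolignols) that are polymerized into lignin in the cell wall. They close a pathway that starts from phenylalanine and passes through phenylalanine ammonia-lyase (PAL), 4-coumarate CoA ligase (4CL), acyl transfer, O-methylation and cinnamoyl-CoA reductase (CCR), after which laccases and peroxidases oxidize the monolignols. In rice, loss of CAD2 colours hull and internode (the gene is also named GH2, for gold hull and internode), and loss of CAD7 weakens the stem (its other name, FC1, stands for flexible culm). The family is spread over the genome, with CAD2 on chromosome 2, CAD6 and CAD7 on chromosome 4, CAD1 and CAD3 on chromosome 10, and CAD8A to CAD8D on chromosome 9, where these 4 genes are consecutive in the annotation with 0 genes between them.

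RNA was measured on Affymetrix rice arrays, and the deposited value is a signal per probe set, a set of short probes for a transcript, on a linear scale. The lowest signal was 16 on every array, a constant that is already in the values, and the medians of the 6 arrays lay between 22.5 and 23.3. A log2 change below is the difference of group means of log2(signal + 1), BA-treated minus untreated, and it understates the change of a transcript near the constant. Its SE is the moderated one of limma, which draws the variance of each probe set toward a value shared by all. The SE is thus not the spread of that probe set alone. The arrays of BA-treated replicates 2 and 3 were close to each other, since their log2 differences had an SD of 0.160, whereas every other pair of arrays had an SD between 0.416 and 0.615. Both arrays were nevertheless counted as samples of their own. Untreated replicate 3 stood apart in the control for 28S ribosomal RNA, with a signal of 345.8 where the other 5 arrays had 28.4 to 47.1. That array also had the lowest summed signal of 7 green leaf genes (of 8 listed), at 1260. Untreated replicates 1 and 2 summed to 2473 and 2539 and BA-treated arrays to between 1925 and 2380. The low sum lay in CAB2R, at 582.3 there against 1928 and 2126 on untreated replicates 1 and 2. The other genes of the list did not have their lowest untreated signal on that array. For rca it was the highest untreated array (303.3, against 173.5 and 218.7). Of these 7 genes, 0 passed an adjusted p of 0.05 in limma. At an unadjusted p under 0.05, 2 were over 1.5-fold higher with BA, as were 1.73% of all rice probe sets. The part of these differences in the values below was not tested, and the log2 change of each CAD gene without untreated replicate 3 is given with that gene. The labelled tissue could be checked in part against the green leaf genes, whose highest signal was 2126 (CAB2R), and against 9 seed storage genes (of 10 listed). The highest signal of the seed storage genes was 79.9 (GLUA-2), and 3 of them were under 20 on all arrays. RBCS1, LHCP and the dimmer FBPase gene were below GLUA-2 on every array, so the check rests on the brighter green leaf genes.

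CAD6 and CAD8A were the members with all 3 BA-treated arrays above all 3 untreated arrays, and CAD1, CAD2, CAD3, CAD7 and CAD8C overlapped between the groups. The signal of CAD6 was 22.0, 20.7 and 19.2 in untreated replicates 1, 2 and 3 and 56.1, 63.0 and 61.8 in BA-treated replicates 1, 2 and 3. The untreated leaves thus sat within a few units of the constant, the treated leaves stood clearly above it, and the arrays of each group were close together. The untreated mean was 20.6 ± 1.36 and the treated mean 60.3 ± 3.72 (SD, n = 3 each). On the log2(signal + 1) scale this was a change of 1.502 ± 0.088 (SE), or 2.83-fold, and 1.46 without untreated replicate 3. The untreated signals were below the median of their arrays, so the size of the change depends on the treatment of the constant, and it ran from 1.06 to 2.05 with other treatments. Its spread within groups, 0.0899 on the log2 scale, was smaller than that of most genes, since 8.69% of the 17905 genes had a smaller one and the median was 0.251. The constant also narrows the log2 spread of dim signals, and BA-treated replicates 2 and 3 were close arrays, so the small spread is not a measure of precision.

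CAD8A, 1 of the 4 neighbouring CAD8 genes on chromosome 9, gave signals of 173.6, 163.6 and 52.9 in untreated replicates 1, 2 and 3 and 208.7, 531.7 and 500.5 in BA-treated replicates 1, 2 and 3. BA-treated replicate 1 lay just above the highest untreated array, while the other BA-treated arrays were far above it and untreated replicate 3 was far below the rest. The means were 130.0 ± 67.0 and 413.6 ± 178 (SD, n = 3 each), and the log2 change was 1.73 ± 0.58 (SE), or 3.31-fold. Its spread within groups (0.860 on the log2 scale) exceeded that of 95.6% of genes. Without untreated replicate 3, the array that stood apart, the log2 change of CAD8A was 1.18, and without BA-treated replicate 1 it was 2.16. CAD6 and CAD8A have no settled order: the log2 change of CAD8A was above that of CAD6 over all arrays, but below it without untreated replicate 3 (1.18 against 1.46) and with the array minimum subtracted (1.83 against 2.05).

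**Figure D1:**
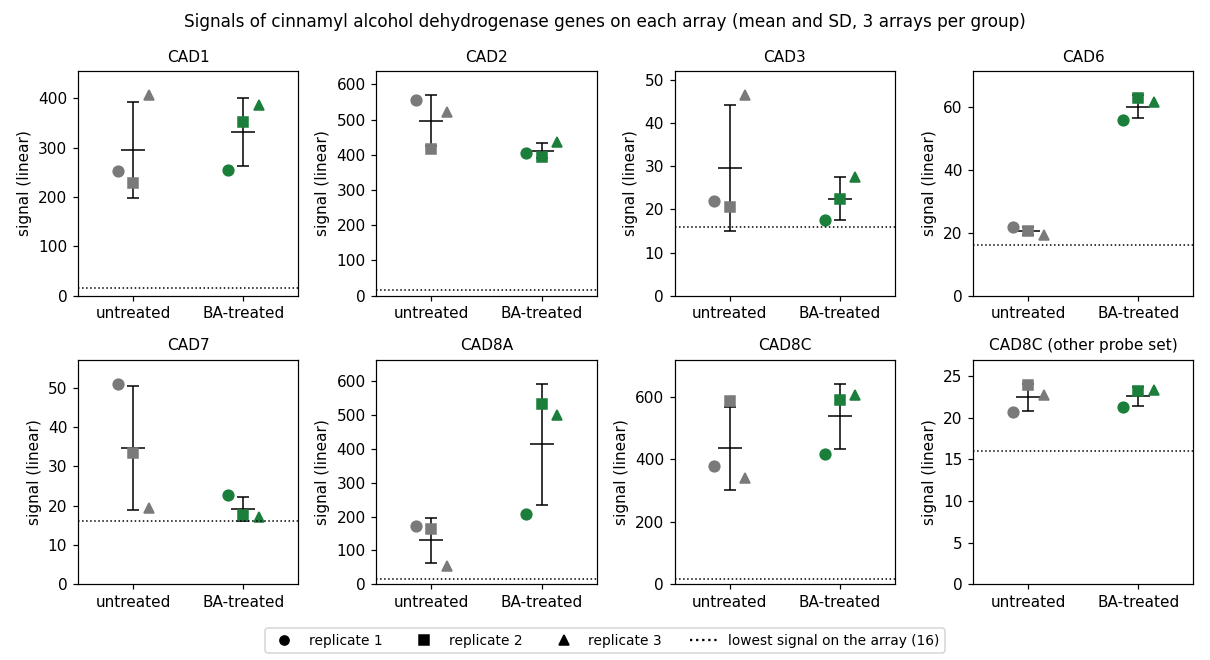
Signal on the linear scale of each CAD probe set on the 6 arrays, with a panel of its own scale per probe set; points are arrays (shape gives the replicate), horizontal marks and bars are the mean and SD of 3 arrays, and the dotted line is the lowest signal, 16. The BA-treated arrays of CAD6 (56.1 to 63.0) and CAD8A (208.7 to 531.7) lie above all untreated arrays of the same gene, and the groups overlap in the other panels.

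CAD8C, a neighbour of CAD8A, was read from a pair of probe sets. The brighter gave 379.4, 586.2 and 339.5 in untreated replicates 1, 2 and 3 and 417.5, 591.1 and 604.7 in BA-treated replicates 1, 2 and 3. The groups overlapped, because untreated replicate 2 was as bright as the brightest treated arrays. The means were 435.1 ± 132 and 537.8 ± 104 (SD, n = 3 each), with a log2 change of 0.33 ± 0.25 (SE), or 0.17 without untreated replicate 3. The other probe set stayed between 20.7 and 23.9 on all 6 arrays, near the constant, with a log2 change of 0.01, so the 2 probe sets of this gene differed and only the brighter carried a signal that varied. How far probes of CAD8A and CAD8C also detect RNA of each other or of the other neighbouring CAD8 genes was not tested.

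CAD2, the gene of the gold hull and internode phenotype, was read from a probe set marked as matching several transcripts of a gene (_a_at). Its signal was 555.9, 415.4 and 520.3 in untreated replicates 1, 2 and 3 and 406.0, 393.8 and 436.1 in BA-treated replicates 1, 2 and 3. BA-treated arrays were close together, and untreated replicate 2 lay among them. The means were 497.2 ± 73.0 and 411.9 ± 21.8 (SD, n = 3 each) and the log2 change was -0.26 ± 0.13 (SE). It was -0.22 without untreated replicate 3 and stayed between -0.39 and -0.18 with each array left out in turn.

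CAD7, the gene of the flexible culm phenotype, gave 51.1, 33.5 and 19.5 in untreated replicates 1, 2 and 3 and 22.8, 17.7 and 17.1 in BA-treated replicates 1, 2 and 3. Untreated replicates 1 and 2 were above every BA-treated array, but untreated replicate 3 fell among the treated ones, and the treated values were near the constant. The untreated mean was 34.7 ± 15.8 and the treated mean 19.2 ± 3.10 (SD, n = 3 each), for a log2 change of -0.73 ± 0.34 (SE), the lowest of the 7 genes. Without untreated replicate 3 the log2 change of CAD7 was -1.08. Without untreated replicate 1 it was -0.41.

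CAD1 and CAD3, the members on chromosome 10, overlapped between the groups. CAD1 gave 251.6, 228.3 and 406.9 in untreated replicates 1, 2 and 3 and 254.4, 352.4 and 386.6 in BA-treated replicates 1, 2 and 3, with a log2 change of 0.19 ± 0.27 (SE). Its highest signal was on untreated replicate 3, and without that array the log2 change was 0.44. CAD3, also read from an _a_at probe set, gave 21.9, 20.6 and 46.6 in untreated replicates 1, 2 and 3 and 17.5, 22.5 and 27.5 in BA-treated replicates 1, 2 and 3. Untreated replicate 3 was again the brightest array, and the other 5 were near the constant. The log2 change of CAD3 was -0.31 ± 0.34 (SE), and without untreated replicate 3 it turned to 0.056.

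Across the family, BA-treated replicate 1 was the lowest of the 3 treated arrays for 5 genes (CAD1, CAD3, CAD6, CAD8A and CAD8C) and the highest for CAD7. Untreated replicate 3 was the lowest untreated array for 4 genes (CAD6, CAD7, CAD8A and CAD8C) and the highest for CAD1 and CAD3. The members thus did not follow a common order over the arrays of a group.

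**Figure D2:**
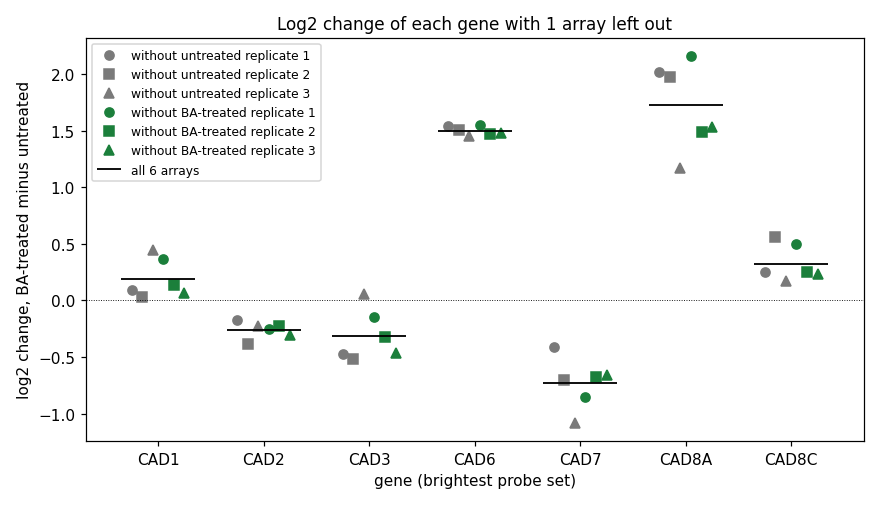
Log2 change (BA-treated minus untreated) of the brightest probe set of each CAD gene over all 6 arrays (line) and with each array left out (points; grey for an untreated and green for a BA-treated array left out, shape for the replicate). CAD6 stays between 1.46 and 1.55, CAD8A runs from 1.18 to 2.16, and CAD3 lies on both sides of 0.

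The constant in the signals bears on the members unequally. With 16 added in place of 1 before the logarithm, the log2 change of CAD6 was 1.06, and with each array's minimum subtracted and 8 added it was 2.05. For CAD7 these settings gave -0.48 and -1.09, and for CAD3 they gave -0.21 and -0.45. CAD8A moved to 1.59 and 1.83, and CAD2, bright in both groups, to -0.25 and -0.27. The direction of each of the 7 genes was the same in these settings.

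**Figure D3:**
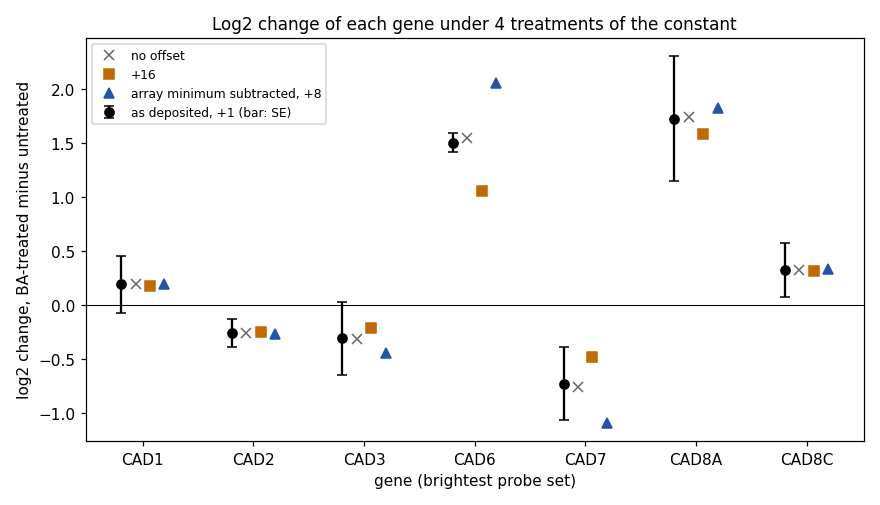
Log2 change (BA-treated minus untreated) of the brightest probe set of each CAD gene with 1 added to the signal (black, bar is the SE), nothing added (cross), 16 added (square) or the array minimum subtracted and 8 added (triangle). CAD6 runs from 1.06 to 2.05, whereas CAD1 and CAD8C hardly move.

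Counted as a family, 4 of the 7 genes had a log2 change above 0 and 3 below it, with a median of 0.19, and without CAD6 the median of the other 6 was -0.04. Over all 17905 genes the median was -0.0035 and 49.3% were above 0. Leaving out each array in turn moved the family's median between 0.03 (without untreated replicate 2) and 0.37 (without BA-treated replicate 1). Of the 7 genes, 1 (CAD6) passed an adjusted p of 0.05 in limma, a rule that 0.159% of all rice probe sets passed (53 higher and 38 lower with BA). CAD6 did not pass it without BA-treated replicate 2 or without BA-treated replicate 3, at log2 changes of 1.47 and 1.48, nor with the mean of those close arrays counted as 1 sample, at 1.48. The study's thresholds were over 1.5-fold and a p under 0.05, with no test named for the arrays and no word on adjustment. They were applied here with the unadjusted p of limma. By them, 2 of the 7 (CAD6 and CAD8A) were higher with BA, as were 1.73% of rice probe sets, and 0 were lower, against 2.16%. CAD8A did not pass without BA-treated replicate 2 or 3. Groups did not overlap for 2 of the 7, and for 14% of rice probe sets. The family was selected on this contrast, so nothing is read from these counts.

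The other genes of lignin synthesis and of related families were taken from lists of the enzymes by name, chosen with earlier results of these data known, and 31 of them were measured. None of the 31 (0) passed an adjusted p of 0.05 in limma, against 0.159% of rice probe sets. At an unadjusted p under 0.05, 1 was higher and 1 lower, against 4.24% and 4.25% of rice probe sets. By the study's thresholds 0 were higher and 1 was lower with BA, against 1.73% and 2.16%. Their median log2 change was -0.05, with 10 above 0 and 21 below it. Of these, 13 act in the steps before CAD, with 3 above 0, 10 below and a median of -0.15. The hydroxylation of cinnamate and coumarate, also before CAD, has no gene among the 13. Every name caught for it was of a zinc finger gene and was taken out.

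PAL, which opens the pathway by removing ammonia from phenylalanine, gave 1938, 2044 and 1511 in untreated replicates 1, 2 and 3 and 1750, 977 and 695 in BA-treated replicates 1, 2 and 3. BA-treated replicate 1 lay among the untreated arrays and the other treated arrays below them, for a log2 change of -0.78 ± 0.34 (SE; adjusted p = 0.64 from limma). PAL was read from the brightest of 5 probe sets, and with these averaged its log2 change was -0.66. PAL06, of the same family, differed by -0.41 ± 0.62 (SE), and by -1.07 without untreated replicate 3. All 5 measured 4CL genes, whose enzymes activate cinnamic acids as CoA esters, had a log2 change below 0, from -0.55 for 4CL4 to -0.05 for 4CL2, and none passed the tests. The signals of 4CL4 were 642.8, 388.8 and 265.0 without BA and 439.5, 227.6 and 208.1 with BA (replicates 1, 2 and 3), overlapping between the groups; the log2 change of 4CL4 was -0.86 without untreated replicate 3. That of 4CL1 differed by -0.15 ± 0.10 (SE).

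ROMT-15, an O-methyltransferase gene listed with the methylation steps, gave 1503, 716 and 950 in untreated replicates 1, 2 and 3 and 671, 543 and 502 in BA-treated replicates 1, 2 and 3. All treated arrays lay below all untreated ones, with a log2 change of -0.83 ± 0.28 (SE; adjusted p = 0.49 from limma), the lowest among the 31. At the study's thresholds it was the gene counted as lower, but not without untreated replicate 1, BA-treated replicate 2 or BA-treated replicate 3. ROMT-17 differed by 0.17 ± 0.17 (SE), HCT1 by -0.04 ± 0.16 (SE) and HCT2, like HCT1 listed with the acyl transfer to shikimate or quinate, by 0.20 ± 0.47 (SE), the last turning to -0.29 without untreated replicate 3. CCR1, a cinnamoyl-CoA reductase gene, of the step that supplies CAD with its substrate, gave 24.2, 75.7 and 30.0 without BA and 129.1, 23.9 and 22.5 with BA (replicates 1, 2 and 3). A single array in each group was high, and the log2 change was 0.11 ± 0.78 (SE), or -0.70 without BA-treated replicate 1.

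After CAD, laccases oxidize monolignols for polymerization, and 9 genes of that family were measured, 3 above 0 and 6 below it. LAC19 gave 192.4, 169.6 and 43.4 without BA and 224.6, 199.3 and 201.1 with BA (replicates 1, 2 and 3). Treated arrays were all higher, by a little against untreated replicates 1 and 2 and by far against untreated replicate 3, for a log2 change of 0.88 ± 0.56 (SE; adjusted p = 0.81 from limma) over all arrays and 0.20 without untreated replicate 3. LAC24 differed by 0.86 ± 0.62 (SE), LAC20 by -0.45 ± 0.29 (SE) and LAC4 by -0.19 ± 0.13 (SE), with overlapping groups. Single arrays moved these values: LAC24 was at 1.60 without untreated replicate 1 and 0.35 without untreated replicate 2, LAC20 at -0.11 without untreated replicate 3, and LAC4 at -0.076 without untreated replicate 2. The cellulose synthases of the secondary wall, CESA4, CESA7 and CESA9, which also mark cells with such walls, were dim in both groups, with a summed signal of 74.3 to 89.3 without BA and 70.4 to 74.8 with BA. Their log2 changes ran from -0.23 for CESA9 to -0.07 for CESA4, with -0.13 ± 0.07 (SE) for CESA7, whose treated arrays were all below the untreated ones. As a check on other cells, 8 epidermis genes (of 9 listed) summed to 450 to 488 without BA and 430 to 642 with BA, and 4 anther genes (of 5 listed) to 93.5 to 129 and 99.8 to 122; 0 genes of any marker list passed an adjusted p of 0.05. At the study's thresholds 1 epidermis gene, Roc2, was higher with BA (1.73% of rice probe sets were), with 78.4, 78.0 and 118.3 without BA and 106.1, 263.2 and 244.9 with BA (replicates 1, 2 and 3). Of the 8 epidermis genes, 3 had a log2 change above 0 and 5 below it. Roc6 went the other way from Roc2, with all treated arrays below all untreated ones and a log2 change of -0.75 ± 0.35 (SE). BA-treated replicate 1 was the lowest treated array for Roc2, as for CAD8A, but not for Roc6. The part of these markers in the CAD values was not tested.

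**Figure D4:**
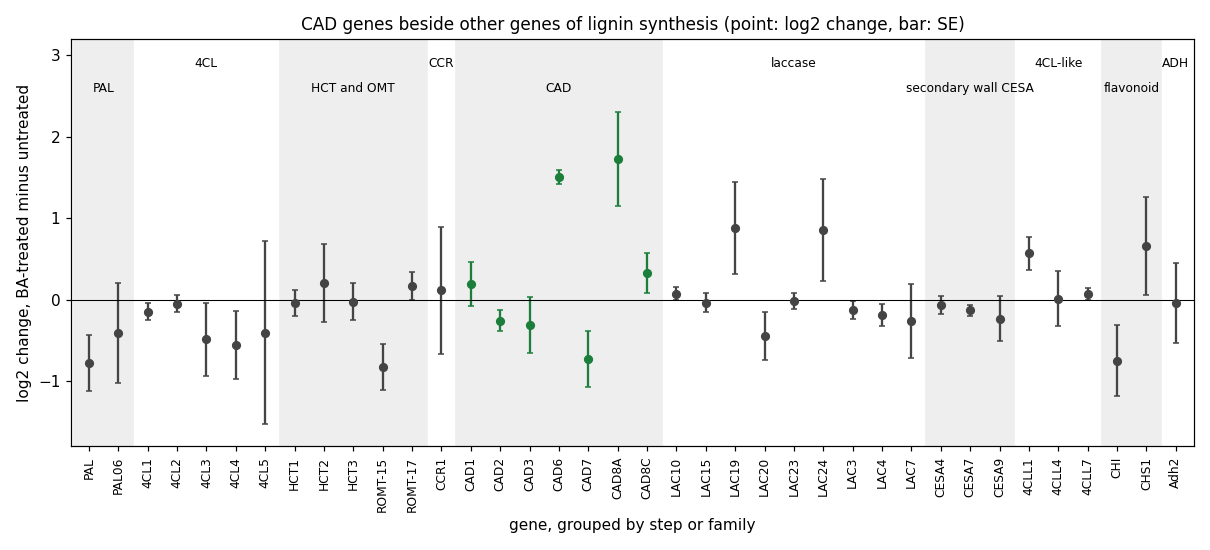
Log2 change (BA-treated minus untreated, bar is the SE) of the 7 CAD genes (green) and the 31 other genes of lignin synthesis and related families (dark grey), grouped by step or family. CAD6 (1.502) and CAD8A (1.73) are the highest points. The PAL and 4CL genes lie below 0, as do CAD2, CAD3 and CAD7, whereas CCR1, HCT2 and ROMT-17 lie above it. Among these, the bars of PAL06, 4CL2, 4CL5, CAD3, CCR1, HCT2 and ROMT-17 cross 0.

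Related families outside the main line were measured as well. 4CLL1, a 4CL-like gene, gave 395.2, 442.4 and 342.1 without BA and 438.8, 647.6 and 684.8 with BA (replicates 1, 2 and 3). BA-treated replicate 1 fell just under untreated replicate 2, and the log2 change was 0.57 ± 0.20 (SE; adjusted p = 0.50 from limma). 4CLL7 differed by 0.07 ± 0.07 (SE). In the flavonoid branch, which draws on the same CoA esters, CHS1 (chalcone synthase) differed by 0.66 ± 0.60 (SE) and CHI (chalcone isomerase) by -0.75 ± 0.43 (SE); only untreated replicate 1 was high for CHI (116.9), the remaining 5 arrays giving 32.3 to 44.5. With arrays left out, CHS1 ran from 0.15 (without untreated replicate 3) to 1.16 (without untreated replicate 1), and CHI was at -0.24 without untreated replicate 1. CHS1 had 5 probe sets, and with these averaged its log2 change was 0.29. Adh2, an alcohol dehydrogenase of fermentation rather than of lignin synthesis, ranged from 663.0 to 1727 with a log2 change of -0.04 ± 0.49 (SE) and no settled direction with arrays left out.

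The named genes most like CAD6 over the 6 arrays, by Pearson's r of log2(signal + 1) among 1962 named genes with a signal of at least 32 on any array, were OsNrx1-2, a nucleoredoxin gene (r = 0.998), LOX1.1, a lipoxygenase gene (r = 0.994), Fd-GOGAT, for ferredoxin-dependent glutamate synthase (r = 0.993), CDPMEK, a kinase of plastid isoprenoid synthesis (r = 0.992), and OSK3, a protein kinase gene (r = 0.970). All 5 had the 3 treated arrays above the 3 untreated ones, as did 3841 of the 57258 rice probe sets. Their log2 changes were 2.01, 2.03, 1.01, 0.90 and 0.67 in that order. The separation follows from the ranking, since CAD6 itself separates the groups, and nothing is read from it. Those most like CAD2 were GRXC1, a glutaredoxin gene (r = 0.988), OsPP2C09, a protein phosphatase gene (r = 0.986), CSTLP2 (r = 0.976), ARG1 (r = 0.975) and CIPK20, a CBL-interacting protein kinase gene (r = 0.970). Each of these 5 was, like CAD2, bright on untreated replicates 1 and 3 and near the treated arrays on untreated replicate 2, with log2 changes from -0.86 to -0.35. That shared order likewise follows from ranking by likeness to CAD2. These correlations describe 6 arrays, of which BA-treated replicates 2 and 3 are close.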

How the data were processed

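RNA of N22 leaves was measured on 6 Affymetrix rice arrays, 3 per group. The authors deposited an intensity per probe set, not log-transformed, which PLIER had summarised over probes before a variance stabilization. RMA also stands in the submitters' processing notes; the sources used here do not give its role, any software version or how arrays were scaled. Probe sets were named through the platform annotation and the gene names of a rice reference; 95 probe sets listed with several genes were not named, and the brightest probe set stood for its gene. Log2(signal + 1) was compared with limma 3.58.1 under R 4.3.3 (lmFit, then eBayes); p-values were adjusted by Benjamini-Hochberg over the 57258 probe sets left after 123 controls were removed. Members and lists were chosen with earlier results of these data known. All CAD probe sets were named, and from each pathway list up to 4 genes of lowest p (no more than 2 in each direction). 4CL2, 4CL5, CESA4, Roc2, Roc6, CAB2R, rca, RBCS1, LHCP, FBPase and GLUA-2 were named after their values were seen. Zinc finger and regulator genes caught by name were taken out of the pathway lists, and the wsl genes out of the epidermis list, after the names were seen. The fit was run on simulated independent arrays. These lacked the closeness of BA-treated replicates 2 and 3, so nothing about the calls is read from that run. Alternatives covered the offset, normalization, spread estimate, array weights, filters, probe set choice, a replicate block and arrays left out. The number of arrays limits precision.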

Additional observations from a re-analysis of the deposited data

How the results depend on the processing

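Of 578 log2 changes recomputed under 21 alternatives, 548 kept direction and side of the threshold. These were of the 8 CAD probe sets and the pathway genes named for their lowest p. Genes named after their values were seen, and those most like CAD6 and CAD2, were not among them. Against 53 probe sets higher and 38 lower at an adjusted p of 0.05, array weights gave 150 and 130, the replicate number as a block 0 and 0, the mean of BA-treated replicates 2 and 3 as 1 sample 0 and 0, the pooled-variance test 1 and 0, and arrays left out 0 to 98 and 0 to 82; the number lower was 67 with the minimum subtracted, 63 with a trended prior and 19 with plain _at probe sets. Whether same-numbered arrays form pairs was not settled: correlations of their deviations from the group means were 0.42, -0.01 and 0.42 for replicates 1, 2 and 3. Untreated replicates 1 and 3 correlated best with the BA-treated array of the same number. Untreated replicate 2 correlated best with BA-treated replicate 1 (0.08). At the study's thresholds, 991 higher became 1490 with the minimum subtracted and 1236 lower became 802 with the pooled-variance test. The call of CAD6 was lost (0 CAD genes called) with the replicate block, the mean of BA-treated replicates 2 and 3, the pooled-variance test, or without BA-treated replicate 2 or 3 (range 0 to 1 with arrays left out), at log2 changes of 1.47 to 1.502. At the study's thresholds, CAD genes higher went from 2 to 1 with that mean and with the pooled-variance test (1 to 2 with arrays left out). CAD genes lower went from 0 to 1, CAD7, with a trended prior, array weights and the replicate block (0 to 1 with arrays left out). Pathway genes higher went from 0 to 1 with array weights and the replicate block (0 to 1 with arrays left out), and those lower from 1 to 2 with a trended prior, averaging each gene's probe sets and the replicate block, 3 with array weights, and 0 with the mean of BA-treated replicates 2 and 3 and the pooled-variance test (0 to 3 with arrays left out). Leaving out untreated replicate 3 together with that mean, chosen after seeing the data, gave 0 probe sets called either way, 0 CAD genes called at a log2 change of 1.43 for CAD6, 1 CAD gene higher and 1 lower at the study's thresholds, and 0 pathway genes lower.

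Among the recomputed log2 changes, the direction turned for the following. With arrays left out, CAD3 ran from -0.51 to 0.056, the other probe set of CAD8C from -0.046 to 0.056, Adh2 from -0.47 to 0.36, PAL06 from -1.07 to 0.045, CCR1 from -0.70 to 0.60, HCT2 from -0.29 to 0.46, HCT1 from -0.16 to 0.074 and CESA9 from -0.39 to 0.081. Array weights gave 0.24 for Adh2, -0.53 for CCR1 and -0.10 for HCT2, averaging each gene's probe sets gave -0.026 for ROMT-17, and the mean of BA-treated replicates 2 and 3 gave -0.010 for the other probe set of CAD8C and 0.025 for HCT1. With untreated replicate 3 also left out, HCT2 was at -0.15 and the other probe set of CAD8C at -0.00010. The cause was not tested.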
